A study of Mus musculus with 42 samples.

Results

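Cortical neuronal cultures were set against the embryonic cortex from which they had been prepared, in 20 of the 42 Affymetrix arrays of a study of the fragile X mouse model. Chosen were the 10 arrays titled as cortical neuronal culture and the 10 titled as cortex from brain. Each culture was paired with the cortex array that carries the same mouse ID, which is read here as the litter. The 4 groups were 5 *Fmr1*KO cultures (litters 2037, 2038, 2221, 2620 and 4236), 5 WT cultures (litters 2236, 2643, 2644, 3569 and NT), and the 5 *Fmr1*KO and 5 WT cortices of those litters. *Fmr1* codes for FMRP, an RNA-binding protein of neurons, and the KO mice carry the disrupted gene in every cell. All mice were on a C57BL/6 background and untreated, and each array holds RNA pooled from littermates. Embryos were 17 to 18 days post-conception when the cortex was taken, and cells of the cultures came from embryos of this age and then spent 14 days in vitro in Neurobasal medium with B27. No array of cortex at the later age was used, so that age, the culture itself and the mix of cells cannot be told apart in any difference below.

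In the mouse embryo at this stage, radial glia and intermediate progenitors are still dividing, young projection neurons are settling in their layers, and interneurons are arriving from the ventral forebrain. Vessels, blood, microglia and meninges are part of the tissue. In a dissociated culture, neurons extend new processes, form synapses and become active, astrocytes grow around them, and the blood supply is gone. The comparison sets a developing tissue against a later network of its surviving cells.

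Values are RMA signals on the log2 scale, where a difference of 1 is 2-fold. A difference is culture minus cortex within a litter, averaged over 10 litters and given with its standard error from limma. A gene is said to be higher or lower in culture where its Benjamini-Hochberg adjusted p over all probes was under 0.05 and the difference at least 1. For each gene the probe with the highest mean was read. In addition, a background level of 5.27 was set from genes of smell and hair that neither preparation should express. Signals below it are called at background, and where only the dimmer preparation was there the fold is given as a lower bound.

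Of 18193 genes, 3279 (18.0%) differed between culture and cortex. Of these, 1492 (8.20% of all genes) were higher and 1787 (9.82%) lower in culture. Every list count below is to be read against these shares, which are repeated only in places. With only the 12048 genes above background in culture or cortex tested, 1471 were higher and 1751 lower, so the shares among expressed genes are larger. Lists made up mostly of expressed genes are to be read against these larger shares. In 3229 of the 3279 genes all 10 litters moved the same way, and in 3127 the 10 culture arrays did not overlap the 10 cortex arrays. With each array centred on its ribosomal and proteasome genes, 3375 genes passed, of which 2502 were higher and 873 lower. The balance of directions thus depends on the scaling. This centring adds 0.382 to every difference, too little to reverse a call of at least 1, so it could not show a change of sign. Culture had a signal where cortex was at background in 290 of the higher genes, and the reverse held for 239 of the lower ones.

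**Figure D1:**
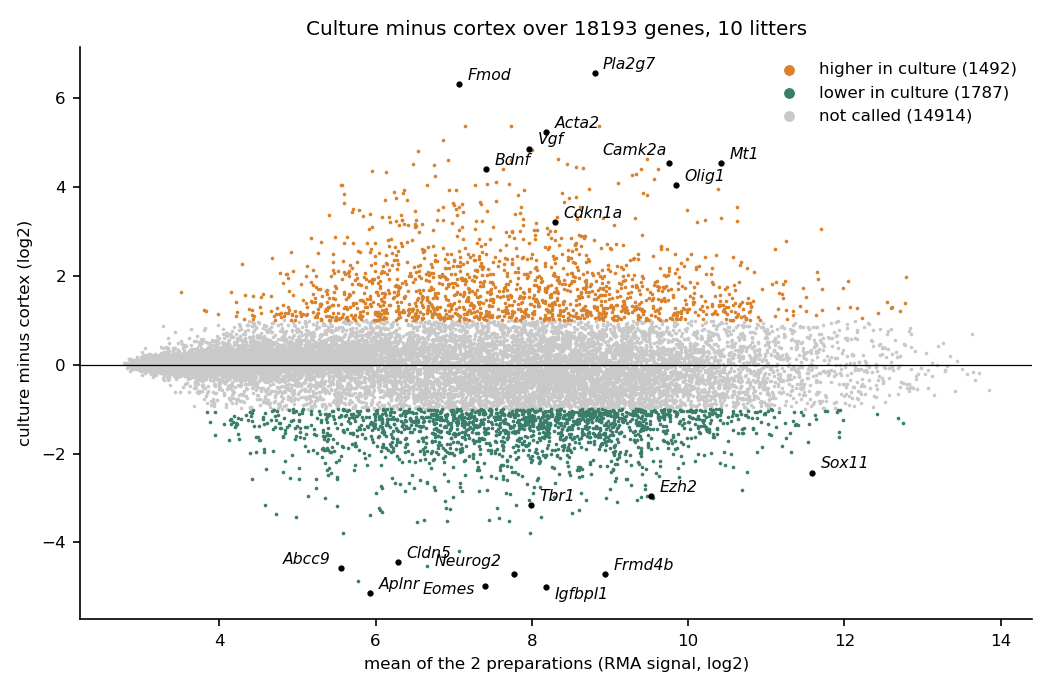
Culture minus cortex (log2, vertical axis) against the mean RMA signal of both preparations (log2, horizontal axis), with 1 point for each of 18193 genes averaged over 10 litters. Orange points are the 1492 genes higher in culture, green points the 1787 lower ones and grey points the 14914 not called. *Pla2g7* and *Fmod* lie at the top, and *Aplnr*, *Igfbpl1* and *Eomes* at the bottom.

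The 20 arrays kept to their labels as far as markers can show. All 5 neuronal markers were above background in both preparations, as were the 3 markers of cortical identity and of GABAergic neurons. Correlations between arrays ran from 0.945 to 0.994 among cultures and from 0.984 to 0.996 among cortices. The median SD over litters was 0.206 in culture and 0.116 in cortex over the 10964 genes above background in both, and 86.7% of these genes varied more in culture. The cortices of WT litters 2644 and NT held much *Ttr*, a product of the choroid plexus, at 8.68 and 10.33 against 5.43 to 6.36 in the other cortices, and without these litters 3339 genes were called.

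The genes with the largest gains are given first. In bulk RNA, more cells of a type and more RNA per cell cannot be told apart, here or in any result below. *Pla2g7*, a secreted phospholipase found in astrocytes, had signals of 11.31 to 12.77 (median 12.14) in culture and of 4.9 to 6.2 (median 5.45) in cortex. The ranges lie far apart, and *Pla2g7* (chr17:43567994-43612202 in GRCm38.p6) showed the largest difference of genes above background in both preparations (6.57 ± 0.17, adjusted p = 3.84e-11). *Vgf*, the precursor of several neuropeptides, reached 9.85 to 11.18 (median 10.38) in culture and 4.54 to 6.82 (median 5.51) in cortex. All 10 cultures were above all 10 cortices, by 4.87 ± 0.22 (adjusted p = 1.86e-09). *Ddn*, which codes for the postsynaptic protein dendrin, stood at 9.37 to 10.99 (median 10.44) in culture and 5.02 to 6.41 (median 5.44) in cortex, again with no overlap (4.83 ± 0.22). The other genes at the top were the matricellular *Ccn3* (5.37 ± 0.27), the smooth muscle genes *Acta2* (5.24 ± 0.21) and *Tagln* (4.61 ± 0.29), the glutathione transferase *Gstm1* (4.63 ± 0.13), the metallothionein *Mt1* (4.54 ± 0.07), the kinase *Camk2a* (4.53 ± 0.2) and the immediate early gene *Egr1* (4.52 ± 0.2).

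Some of the brightest genes of the cultures averaged below background in the cortex. The epoxide hydrolase *Ephx1* read 9.69 to 11.35 (median 10.34) in culture and 4.6 to 5.45 (median 5.09) in cortex, at least 35.7-fold higher. *Fmod*, for the collagen-binding proteoglycan fibromodulin, was at least 31.2-fold higher in culture by the probe read, which averaged 10.23 there. Its other probes averaged 7.55 to 8.68 in culture, also with the cortex below background, so that this bound depends on the probe. *Icam5*, an adhesion molecule of the dendrites of forebrain neurons, had 8.99 to 10.72 (median 9.69) in culture and 4.18 to 4.7 (median 4.43) in cortex, at least 23.7-fold higher, with no overlap. The neurotrophin *Bdnf* and the astrocytic water channel *Aqp4* were at least 20.4-fold and 17.5-fold higher.

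*Igfbpl1*, which is active in young neurons, had the deepest fall of genes above background in both preparations. It had 5.19 to 6.01 (median 5.73) in culture and 10.38 to 10.97 (median 10.69) in cortex, a difference of -5.0 ± 0.11 (adjusted p = 1.56e-11). *Neurog2*, the transcription factor that starts the glutamatergic neuronal program, had 4.86 to 5.86 (median 5.47) in culture and 9.56 to 10.57 (median 10.22) in cortex (-4.72 ± 0.15). For neither gene did the groups overlap. Further down the same ranking were *Frmd4b* (-4.72 ± 0.08), *Insm1* (-3.79 ± 0.08), a factor of progenitors about to leave the cycle, the protease *Ctsz* (-3.52 ± 0.38), *Zbtb12* (-3.49 ± 0.13), *Zic1* (-3.46 ± 0.34), the axon guidance gene *Draxin* (-3.42 ± 0.11), the cycle inhibitor *Cdkn1c* (-3.33 ± 0.2) and *Vash2* (-3.28 ± 0.11). Of genes at background in culture and bright in cortex, *Eomes* was at least 24.6-fold lower, the glypican *Gpc2* at least 12.6-fold, the neuropeptide *Nts* at least 10.6-fold, the tight junction gene *Cldn5* at least 9.46-fold and the vessel receptor *Aplnr* at least 9.43-fold. The other probe of *Aplnr*, dim but above background in both preparations (5.36 and 5.67), differed by only -0.31.

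**Figure D2:**
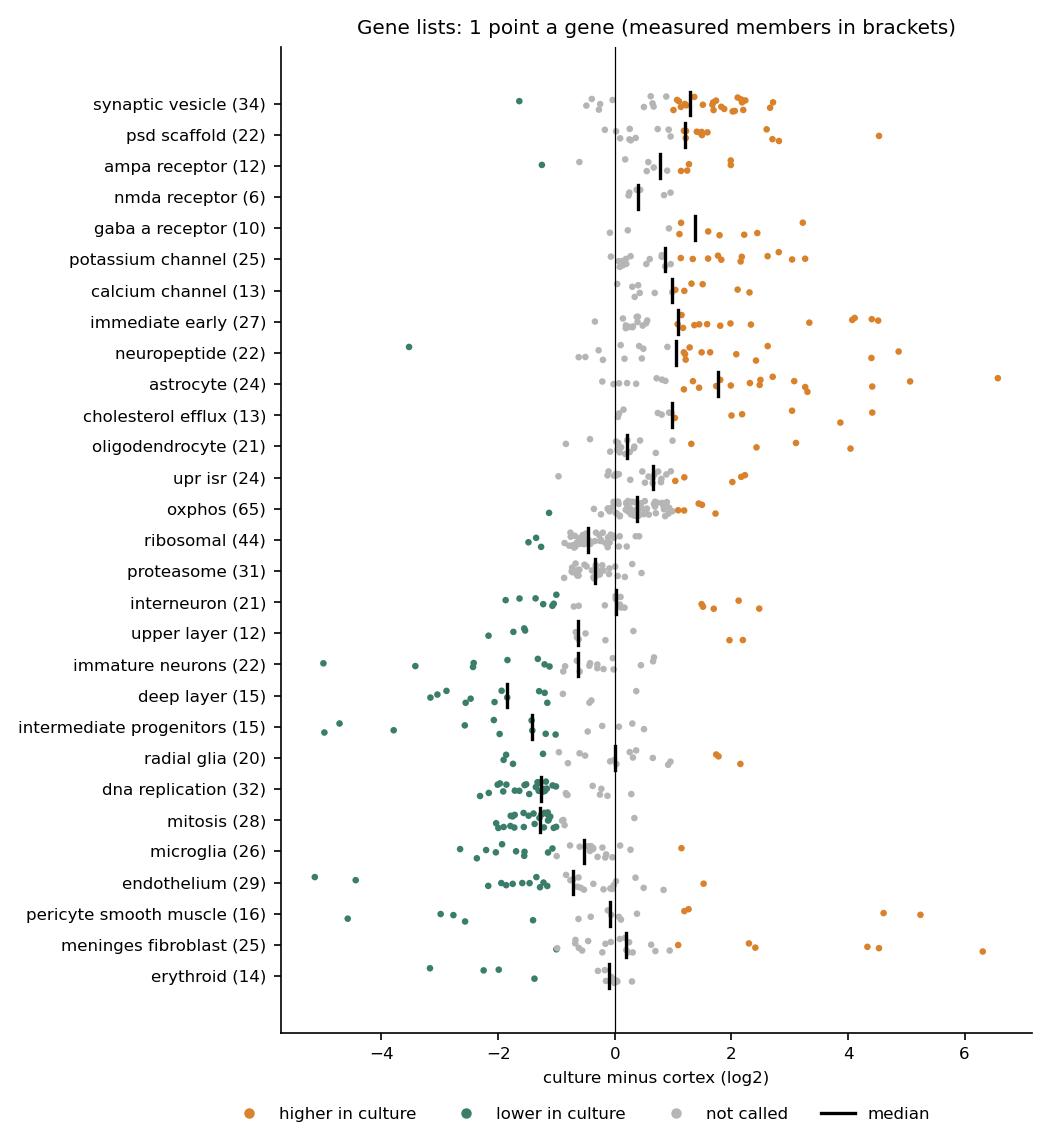
Culture minus cortex (log2, horizontal axis) for the members of 29 gene lists, with 1 point a gene, the measured members in brackets and the median as a black bar. Orange points are higher in culture, green points lower and grey points not called; medians run from -1.84 in the deep layer list to 1.77 in the astrocyte list.

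Most genes of cell division were lower in culture. Of 32 measured genes of DNA replication, 24 were lower in culture and 0 higher (median difference -1.26), and of 28 genes of mitosis 24 were lower and 0 higher (median -1.28), against 9.82% lower among all genes. The median over all genes was 0.01. With ribosomal and proteasome centring, 11 and 12 of these genes still passed as lower. The proliferation marker *Mki67* had 7.47 to 9.52 (median 8.87) in culture and 9.57 to 10.54 (median 10.02) in cortex. The groups did not overlap, and the difference was -1.16 ± 0.13 (adjusted p = 6.02e-06), with all cultures above background, and it was not called with ribosomal and proteasome centring. *Gins1* (-2.31 ± 0.09) of the replicative helicase, *Cdc25a* (-2.16 ± 0.05), a phosphatase that opens the S phase, and the clamp loader subunits *Rfc3* (-2.01 ± 0.08) and *Rfc4* (-1.97 ± 0.08) fell most in the replication list. In the mitosis list it was *Nusap1* (-2.03 ± 0.14) of the spindle, the checkpoint kinase *Bub1* (-2.0 ± 0.13) and the cyclin *Ccnb2* (-1.91 ± 0.13). *E2f1*, an activator of S phase genes, did not pass (-0.23 ± 0.07), nor did *Foxm1* (0.34 ± 0.07), an activator of mitotic genes.

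Genes of S phase and of mitosis are read from promoters of known design, and both lists moved together. The promoters below are examples, each of which carries the elements described next for its list. Genes of replication carry sites for E2F factors, whereas mitotic genes carry CCAAT boxes and the cell cycle homology region, CHR. The promoters are those of RefSeq in GRCm38.p6, from 250 bases before to 50 after the start of the gene, and capitals mark E2F sites (TTTCCCGC, TTTCGCGC, TTTGCCGC or TTTGGCGC), CHR (TTTGAA) and CCAAT boxes on either strand.
Cdc25a, chr9:109875329-109875628 on the plus strand: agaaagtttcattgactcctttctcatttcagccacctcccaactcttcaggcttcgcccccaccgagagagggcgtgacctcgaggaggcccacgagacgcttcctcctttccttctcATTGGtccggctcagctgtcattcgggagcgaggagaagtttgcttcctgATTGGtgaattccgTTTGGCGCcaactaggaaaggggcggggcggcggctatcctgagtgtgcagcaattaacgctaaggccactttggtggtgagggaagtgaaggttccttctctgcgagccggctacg
Rfc3, chr5:151651159-151651458 on the minus strand: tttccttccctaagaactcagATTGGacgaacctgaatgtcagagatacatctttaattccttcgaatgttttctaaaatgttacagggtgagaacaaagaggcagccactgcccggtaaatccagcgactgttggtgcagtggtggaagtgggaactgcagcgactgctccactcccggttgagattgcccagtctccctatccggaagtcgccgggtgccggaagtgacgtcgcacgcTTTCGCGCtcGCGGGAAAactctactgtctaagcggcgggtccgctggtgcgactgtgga
Ccnb2, chr9:70421505-70421804 on the minus strand: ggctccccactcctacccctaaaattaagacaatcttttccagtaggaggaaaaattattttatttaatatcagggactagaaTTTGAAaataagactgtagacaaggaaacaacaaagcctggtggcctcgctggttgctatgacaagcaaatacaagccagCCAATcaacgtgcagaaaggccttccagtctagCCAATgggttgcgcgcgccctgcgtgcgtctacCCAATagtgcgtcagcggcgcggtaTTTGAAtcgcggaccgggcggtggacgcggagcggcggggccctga
Top2a, chr11:99024140-99024439 on the minus strand: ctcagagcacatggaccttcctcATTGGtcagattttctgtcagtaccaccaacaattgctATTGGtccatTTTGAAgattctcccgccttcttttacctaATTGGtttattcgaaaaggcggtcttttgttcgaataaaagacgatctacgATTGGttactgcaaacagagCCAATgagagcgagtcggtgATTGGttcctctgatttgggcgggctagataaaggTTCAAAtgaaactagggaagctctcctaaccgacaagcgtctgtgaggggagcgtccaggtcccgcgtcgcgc

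In these letters *Cdc25a* has 1 E2F site and *Rfc3* has 2, while *Ccnb2* and *Top2a* each have 2 CHR matches and no E2F site. Other leading genes lack them: *Rfc4* and *Nusap1* have no match to any of these elements, and *Bub1* has CCAAT boxes but no CHR. Over the lists, an E2F site was found in 12 of 27 replication genes with a promoter (44.4%) and in 1 of 22 mitosis genes (4.55%), against 3.8% of all 14367 genes with one. CHR was found in 15 of 22 mitosis genes (68.2%) and in 3 of 27 replication genes (11.1%), against 15.7% of all genes. CCAAT occurred in 77.3% of mitosis genes and 59.3% of replication genes, against 42% of all genes. A match describes the letters of the window and not a bound factor. *Top2a*, the topoisomerase of dividing cells, had 7.4 to 9.56 (median 8.74) in culture and 9.63 to 10.58 (median 10.13) in cortex (-1.39 ± 0.13), without overlap.

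The inhibitors of the cycle moved in different directions. *Cdkn1a*, the p21 inhibitor, was higher in culture (3.22 ± 0.1), as was *Cdkn2b* (at least 3.57-fold). *Cdkn1c* was lower, and so were *Cdkn1b* (-1.05 ± 0.06) and the pocket proteins *Rb1* (-1.05 ± 0.06) and *Rbl1* (-1.57 ± 0.13). *Ezh2*, the histone methyltransferase of dividing progenitors, had 7.05 to 8.93 (median 8.05) in culture and 10.83 to 11.21 (median 11.02) in cortex, with no overlap (-2.96 ± 0.13). Of 23 chromatin genes listed with it, 7 were lower (4 with ribosomal and proteasome centring) and 1 higher, and *Dnmt3a*, the de novo DNA methyltransferase of maturing neurons, was the higher one (1.63 ± 0.07). *Dnmt1*, which copies methylation in dividing cells, was lower (-1.0 ± 0.07). The calls of *Cdkn1b*, *Rb1* and *Dnmt1* were lost with that centring.

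The genes of intermediate progenitors were among the lowest in culture. Of 15 measured, 10 were lower and 0 higher (median -1.41), and 8 were lower and 0 higher with ribosomal and proteasome centring. *Eomes*, which marks these cells (chr9:118478186-118486132), had 4.65 to 5.31 (median 4.89) in culture and 9.47 to 10.24 (median 9.99) in cortex. The cultures averaged below background and the groups were far apart (at least 24.6-fold lower, adjusted p = 1.99e-13). *Neurod1* (-2.57 ± 0.2), which follows *Eomes* in neurogenesis, *Mfng* (at least 3.72-fold lower) and *Neurod4* (at least 1.15-fold lower) were lower as well. The list of radial glia was mixed, with 4 of 20 genes lower and 3 higher, and 3 lower and 6 higher with ribosomal and proteasome centring. *Pax6* (-1.86 ± 0.14), *Emx2* (-1.91 ± 0.11), *Hes5* (at least 2.97-fold lower) and *Gli3* (-1.23 ± 0.15), regulators of progenitors, were lower. *Ednrb* (2.15 ± 0.16), *Pdpn* (1.78 ± 0.23) and the glutamate transporter *Slc1a3* (1.74 ± 0.13), which astrocytes share with radial glia, were higher. The call of *Gli3* was lost with that centring. *Sox2* did not pass (-0.08 ± 0.07). The probes for *Pax6* range from -1.86 to 0.12.

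Notch signalling keeps progenitors from differentiating, and 7 of its 21 measured genes were lower in culture and 0 higher. *Nrarp*, a target of the pathway (-2.22 ± 0.12), *Rbpj*, its DNA-binding factor (-2.17 ± 0.08), and the ligands *Jag1* (-1.36 ± 0.09) and *Dll3* (-1.01 ± 0.08) were among them, although *Jag1* and *Dll3* were not called with ribosomal and proteasome centring, where 5 were lower. The receptors *Notch1* (0.03 ± 0.13) and *Notch2* (0.46 ± 0.16) did not pass.

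Genes of young neurons were lower in part. Of 22 measured, 8 were lower and 0 higher (median -0.62), and 5 were lower and 2 higher with ribosomal and proteasome centring. *Sox11*, a transcription factor of newborn neurons, had 10.14 to 10.59 (median 10.37) in culture and 12.71 to 12.9 (median 12.81) in cortex. No culture came within the range of the cortices (-2.43 ± 0.06, adjusted p = 3.09e-11). *Dcx*, which binds microtubules in migrating neurons, had 9.97 to 10.86 (median 10.15) in culture and 11.96 to 12.22 (median 12.15) in cortex (-1.84 ± 0.11). *Neurod6* (-2.42 ± 0.11), *Sox4* (-1.32 ± 0.1) and *Cd24a* (-1.2 ± 0.1) were also lower. The growth cone genes *Gap43* (0.66 ± 0.09), *Stmn2* (-0.02 ± 0.07) and *Basp1* (-0.03 ± 0.06) did not pass. With that centring *Sox4* and *Cd24a* were not called as lower, and *Gap43* passed as higher.

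Transcription factors that set the identity of the deep layers fell together. Of 15 genes listed for the deep layers, 11 were lower in culture and 0 higher (median -1.84), and 8 were lower and 0 higher with ribosomal and proteasome centring. *Tbr1*, of layer 6 neurons, had 6.09 to 6.77 (median 6.44) in culture and 9.41 to 9.7 (median 9.58) in cortex. The groups did not overlap (-3.16 ± 0.08, adjusted p = 3.57e-11). *Sox5* (-3.04 ± 0.12), *Foxp2* (-2.89 ± 0.18) and *Fezf2* (-2.56 ± 0.15), which directs the fate of subcortical projection neurons, were lower by similar amounts, and *Bcl11b*, or Ctip2, by a little less (-1.84 ± 0.06). Among 12 genes for upper layers, 4 were lower, namely *Pou3f1* (-2.16 ± 0.11), *Pou3f2* (-1.74 ± 0.12), *Pou3f3* (-1.54 ± 0.09) and *Rorb* (-1.55 ± 0.17). In addition, 2 were higher, the semaphorin receptor *Plxnd1* (2.2 ± 0.12) and *Rasgrf2* (1.97 ± 0.13). *Cux1* and *Cux2*, which mark upper layer neurons, did not pass (-0.5 ± 0.05 and -0.67 ± 0.12). *Reln*, the secreted signal of Cajal-Retzius cells and later of interneurons, was at -0.07 ± 0.15 and did not pass.

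*Ccn2*, which is found in subplate neurons and also in mesenchymal cells, was the 1 higher gene of 11 listed for Cajal-Retzius and subplate cells. It had 9.36 to 11.79 (median 11.02) in culture and 5.94 to 7.27 (median 6.43) in cortex, without overlap (4.44 ± 0.29). *Trp73* (at least 1.63-fold lower) and *Ebf3* (at least 1.23-fold lower), of Cajal-Retzius cells, passed as lower, as did *Lhx1*, which was at background in both preparations. With ribosomal and proteasome centring, 1 of the 11 was higher and 0 lower, so that all 3 calls were lost.

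Many genes of the synapse were higher, on both of its sides. Of 34 measured genes of the presynaptic vesicle cycle, 23 were higher in culture and 1 lower (median 1.29), and of 22 genes of the postsynaptic density 12 were higher and 0 lower (median 1.20), against 8.20% higher among all genes. *Sv2b*, a glycoprotein of the vesicle membrane, had 9.77 to 10.82 (median 10.55) in culture and 7.29 to 8.18 (median 7.8) in cortex. Every culture was above every cortex (2.71 ± 0.16, adjusted p = 1.45e-08). *Syn2* (2.66 ± 0.24), a synapsin that tethers vesicles, *Dnm1* (2.24 ± 0.09), the dynamin of endocytosis, *Syngr1* (2.2 ± 0.1), *Syp* (2.18 ± 0.12) and *Nsf* (2.17 ± 0.08) followed. The calcium sensor *Syt1* (1.88 ± 0.11) and the SNARE protein *Snap25* (1.2 ± 0.07) were higher by less. On the postsynaptic side *Camk2a*, the kinase of synaptic plasticity, had 11.13 to 12.97 (median 11.9) in culture and 6.9 to 7.81 (median 7.58) in cortex (4.53 ± 0.2, adjusted p = 1.57e-09). The lowest culture was above all cortices. Its 6 probes differ in size of change, from 0.17 to 4.53. *Shank3* (2.7 ± 0.11) and *Dlg4*, which codes for PSD-95 (1.22 ± 0.12), were higher too.

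The vesicular glutamate transporters moved in opposite directions. *Slc17a7*, or VGLUT1, used by most mature cortical neurons, had 5.41 to 6.57 (median 5.95) in culture and 4.44 to 4.95 (median 4.56) in cortex. The cortices averaged below background, and *Slc17a7* was at least 1.64-fold higher. *Slc17a6*, or VGLUT2, which is prominent in young neurons, had 7.3 to 8.72 (median 7.9) in culture and 9.29 to 9.77 (median 9.56) in cortex, and it was the 1 vesicle gene that was lower (-1.64 ± 0.13).

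Some of the genes for glutamate receptors were higher in culture. Of 12 AMPA receptor genes, 5 were higher and 1 lower. *Gria1*, the GluA1 subunit, had 9.77 to 11.26 (median 10.75) in culture and 8.42 to 9.08 (median 8.68) in cortex, with no overlap (1.99 ± 0.12). The auxiliary subunit *Shisa9* was higher (1.99 ± 0.16), and *Gria3* (1.27 ± 0.09) and *Cnih3* (1.24 ± 0.07) followed, whereas *Gria2* did not pass (0.67 ± 0.07). Of 6 NMDA receptor genes measured, 0 reached 1 in the probe read (0.24 to 0.96), and 6 were higher at any size by limma's adjusted p. With ribosomal and proteasome centring, 2 of the 6 passed as higher, and *Gria2* passed as well. For *Grin2b*, the subunit of early development, probes range from 0.05 to 1.41, and *Grin2a*, the subunit of later life, was at background in both. Of 9 genes for metabotropic receptors and Homer proteins, 4 were higher and 1 lower, with *Grm7* (2.81 ± 0.18) and *Grm5* (1.69 ± 0.12), the mGluR5 receptor, at the top. *Grm3* was the lower one (-1.54 ± 0.23). In the kainate and delta list, *Grik1* (2.5 ± 0.19) and *Grid1* (2.04 ± 0.15) were higher and *Grik3* lower (-1.36 ± 0.16), a call lost with that centring.

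Adhesion molecules of the synapse divided. Of 24 measured, 6 were higher and 2 lower. *Icam5*, *Cntn1* (2.61 ± 0.13), *Nrxn2* (1.51 ± 0.09) and *Cadm3* (1.33 ± 0.16) were higher. *Cntn2*, an adhesion molecule of growing axons, had 7.54 to 8.39 (median 7.9) in culture and 10.67 to 11.11 (median 10.89) in cortex and was lower (-2.98 ± 0.08), as was *Lrrtm4* (-2.17 ± 0.1).

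Receptors for GABA and the transporters that set its effect were higher or did not pass. Of 10 measured GABA-A receptor subunits, 7 were higher in culture and 0 lower (median 1.37). *Gabrb1* had 11.4 to 12.09 (median 11.7) in culture and 7.97 to 9.19 (median 8.45) in cortex, well apart (3.22 ± 0.15, adjusted p = 2.60e-09). *Gabra5* (2.44 ± 0.17), *Gabra4* (2.22 ± 0.13) and *Gabra2* (1.8 ± 0.14) were higher, and *Gabra3*, a subunit of the immature brain, did not pass (0.22 ± 0.16). *Slc12a5*, the KCC2 transporter that lowers chloride in mature neurons, had 11.03 to 11.92 (median 11.26) in culture and 6.87 to 8.16 (median 7.52) in cortex. The groups were separate (3.82 ± 0.15, adjusted p = 7.70e-10). *Slc12a2*, the NKCC1 transporter that loads chloride, did not pass (0.16 ± 0.12).

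Interneuron genes divided by their role. *Gad1*, which makes GABA, had 11.04 to 11.85 (median 11.67) in culture and 8.6 to 9.56 (median 9.15) in cortex (2.48 ± 0.1), and *Gad2* (1.7 ± 0.13) and the vesicular GABA transporter *Slc32a1* (2.12 ± 0.2) were higher with it. Of the 10 arrays of each kind, none overlapped for *Gad1*. *Sst* (1.49 ± 0.25) and *Calb1* (1.51 ± 0.33), which mark classes of interneurons, were higher as well. The factors that specify interneurons in the ventral forebrain were lower, with *Dlx2* at -1.87 ± 0.1, *Dlx1* at -1.63 ± 0.12, *Dlx5* at -1.36 ± 0.09 and *Lhx6* at -1.07 ± 0.13. *Pvalb* and *Vip* were at background in both preparations. In all, 5 of 21 genes were higher and 7 lower, and with ribosomal and proteasome centring 5 were higher and 2 lower, without *Dlx5* and *Lhx6*.

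Genes of ion channels were higher in culture more often than lower. For potassium channels the count was 11 higher and 0 lower of 25, for calcium channels 6 higher and 0 lower of 13, and for sodium channels 4 higher and 1 lower of 8. *Kcna1*, a channel of axons, had 9.69 to 10.67 (median 10.16) in culture and 7.02 to 7.75 (median 7.34) in cortex, without overlap (2.81 ± 0.09). *Kcna2* (2.62 ± 0.08), *Kcna4* (at least 9.35-fold higher) and *Kcnf1* (at least 7.91-fold higher) were higher as well. *Scn8a*, the adult Nav1.6 channel (2.01 ± 0.08), *Scn2a* (1.81 ± 0.12), *Scn1a* (1.42 ± 0.12) and the subunit *Scn2b* (2.65 ± 0.12) were higher. *Scn3a*, the embryonic Nav1.3 channel, did not pass (-0.76 ± 0.09), and *Scn9a* was lower (at least 1.22-fold lower). Among calcium channels *Cacna1a*, of the P/Q type that triggers release, rose most (2.31 ± 0.09).

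**Figure D3:**
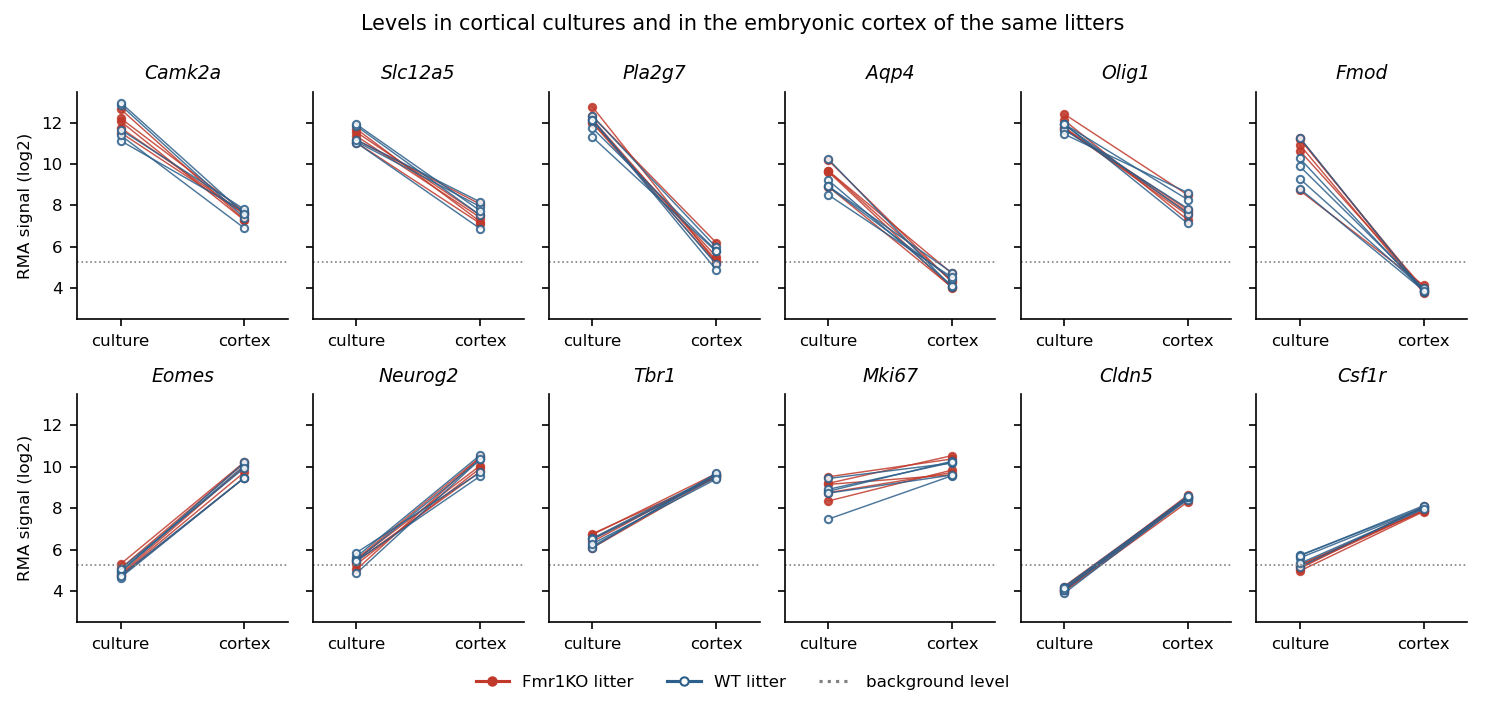
RMA signal (log2, vertical axis) of 12 genes in culture (left) and cortex (right) of each panel, with a line for each of 10 litters, filled red circles for Fmr1KO and open blue circles for WT. The dotted line is the background level of 5.27, and in all 12 panels every line runs the same way.

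Many genes that neurons switch on soon after firing were higher in culture, and unequally between litters. Of 27 immediate early genes, 14 were higher and 0 lower (median 1.08). *Egr1* had 9.26 to 12.43 (median 10.39) in culture and 5.35 to 6.89 (median 6.07) in cortex, with no overlap (4.52 ± 0.2, adjusted p = 1.42e-09). *Fos* read 7.89 to 11.11 (median 9.92) in culture and 5.2 to 5.77 (median 5.48) in cortex (4.11 ± 0.26). *Egr3* had 6.39 to 11.86 (median 9.39) in culture and 4.43 to 6.33 (median 5.36) in cortex (4.07 ± 0.6), and its lowest culture, of WT litter 2236, lay close to the highest cortices. *Npas4*, a factor that responds to calcium entry, was higher (at least 5.58-fold higher), as was *Bdnf*, with 8.85 to 10.47 (median 9.55) in culture and 4.82 to 5.78 (median 5.2) in cortex (at least 20.4-fold higher). *Dusp1* (-0.34 ± 0.17), *Fosl2* (0.48 ± 0.17) and *Jun* (0.39 ± 0.11) did not pass. A full cAMP response element (TGACGTCA) lies in the promoter of 1 of 20 of these genes (5.0%), that of *Dusp1*, against 2.94% of all genes.

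*Egr3* and *Egr2* had the widest spread over cultures in an ordering made after the values were seen. The cultures of WT litter 3569, KO litter 4236 and WT litter NT held the most *Egr1* and *Egr3*, with *Egr1* at 12.43, 11.91 and 11.81 and *Egr3* at 11.86, 11.56 and 11.49. *Egr1* was 9.26 in the culture of WT 2236 and 9.62 in that of WT 2643. Contractile and matrix genes tended to be low in the cultures that held the most *Egr1* and *Egr3*. *Acta2* ran from 9.42 in KO 4236 to 11.98 in WT 2236, *Tagln* from 8.66 to 11.60 in the same 2 cultures, and *Ogn* from 6.58 in KO 4236 to 10.29 in KO 2038. The culture of WT NT was the next to lowest for *Acta2*, *Tagln*, *Fmod* and *Ogn*. By mean over the pericyte and smooth muscle list, WT 3569, KO 4236 and WT NT were the lowest cultures (5.607, 5.423 and 5.512). The other cultures ran from 5.817 to 6.496. Over the immediate early list the same cultures had the highest means (8.689, 8.075 and 7.998, against 7.202 to 7.892). Thus the cultures of WT 3569, KO 4236 and WT NT were low in contractile and matrix genes and high in *Egr1* and *Egr3*. Whether 1 bears on the other was not tested.

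**Figure D4:**
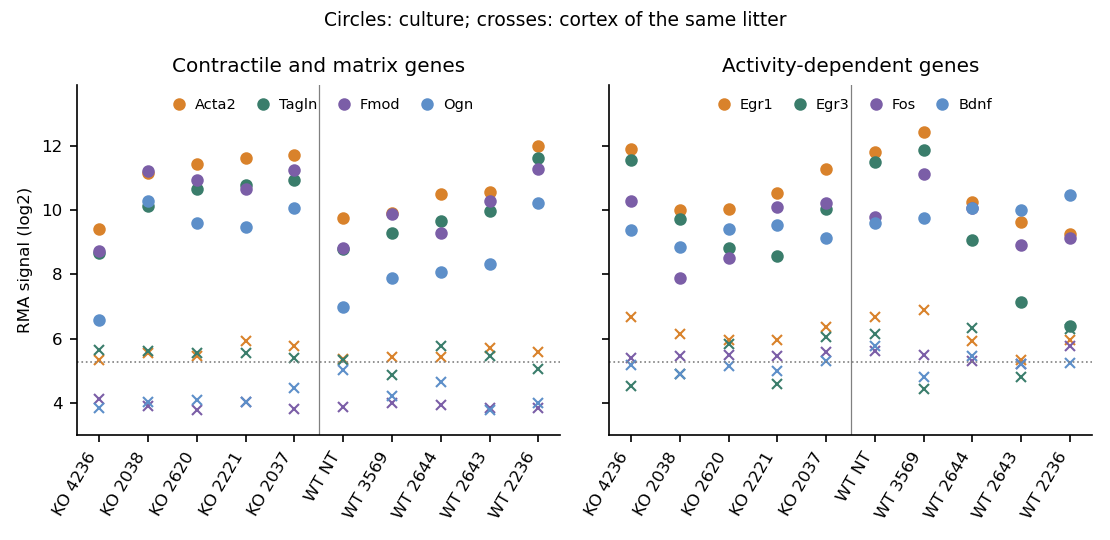
RMA signal (log2, vertical axis) in each of 10 litters (horizontal axis, KO left of WT) for 4 contractile and matrix genes (left) and 4 activity-dependent genes (right). Circles are cultures, crosses the cortex of the same litter and the dotted line the background level of 5.27; *Acta2* spans 9.42 to 11.98 over cultures and *Egr3* 6.39 to 11.86.

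Neuropeptide genes and their processing enzymes were higher in 11 and lower in 1 of 22 cases (median 1.04). *Scg2*, a granin of dense core vesicles, had 10.67 to 12.73 (median 11.45) in culture and 5.99 to 8.4 (median 7.29) in cortex, far apart (4.4 ± 0.18). *Cck* (2.62 ± 0.33), *Chgb* (2.42 ± 0.13) and *Tac1* (2.08 ± 0.3) were higher. *Nts*, the precursor of neurotensin, had 4.63 to 6.26 (median 5.15) in culture and 5.52 to 10.7 (median 9.11) in cortex and was the lower one (at least 10.6-fold). Its cortices differed widely, so that the size of the difference varied from -5.6 to -0.07 between litters. *Pomc*, which was not in the list and was picked for its spread, stood at 10.88 in the culture of WT 2643 and between 6.11 and 6.56 in the other cultures.

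Of 9 genes for neurotrophins, their receptors and sorting proteins, 4 were higher and 0 lower. *Bdnf* itself is 1 of them. The sorting proteins *Sorcs2* (3.63 ± 0.11) and *Sorcs3* (2.22 ± 0.12) were higher, and *Ntrk2*, the TrkB receptor, was higher by 1.3 ± 0.1. The 8 probes of *Ntrk2* range from -0.28 to 3.98, so its size depends on the probe read.

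Of 12 genes for the matrix around neurons, 3 were higher in culture and 2 lower (median 0.31). *Vcan*, the versican of embryonic matrix, had 7.12 to 8.16 (median 7.52) in culture and 10.48 to 10.77 (median 10.65) in cortex and was lower (-3.09 ± 0.09), while its other probes range up to 0.29. *Hapln1*, a link protein of perineuronal nets, had 6.89 to 8.33 (median 7.63) in culture and 3.15 to 3.9 (median 3.51) in cortex (at least 5.0-fold higher). *Bcan* (2.72 ± 0.06) and *Acan* (at least 1.8-fold higher), of the mature matrix, were higher. In the cytoskeleton, where 5 of 10 intermediate filament genes were higher and 1 lower, *Nefh*, the late neurofilament subunit, was higher (at least 4.95-fold higher), *Nefl* less so (1.13 ± 0.16), and *Nefm* was lower (-1.06 ± 0.16), a call lost with ribosomal and proteasome centring.

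Astrocyte genes had the highest list median, 1.77, with 16 of 24 higher in culture and 0 lower. *Aqp4* had 8.52 to 10.25 (median 9.43) in culture and 4.01 to 4.76 (median 4.32) in cortex, where all arrays were at background (at least 17.5-fold higher, adjusted p = 4.56e-10). *Apoe*, the lipid carrier of the brain, had 11.47 to 12.42 (median 11.77) in culture and 7.06 to 7.64 (median 7.45) in cortex, with no overlap (4.41 ± 0.08). *Clu* (3.3 ± 0.18), *Slc1a2* (3.27 ± 0.07), the main glutamate transporter of astrocytes, and *Mlc1* (3.08 ± 0.19) were higher, and *Gfap* by less (at least 1.96-fold higher). The list of reactive astrocytes was mixed, with 6 of 17 higher. These included *Cp* (at least 7.07-fold higher), for ceruloplasmin, and *Cd44* (at least 4.29-fold higher). *Lcn2* and *Cxcl10* were at background in both preparations, and *Ptx3* was lower (-3.24 ± 0.15).

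Of 13 genes of cholesterol efflux and fatty acid synthesis, 6 were higher (10 with ribosomal and proteasome centring) and 0 lower. *Scd1*, a fatty acid desaturase, had 10.64 to 12.38 (median 11.53) in culture and 6.9 to 8.0 (median 7.51) in cortex (3.87 ± 0.23), and the exporter *Abca1* had 11.15 to 12.47 (median 11.88) in culture and 9.53 to 9.8 (median 9.67) in cortex (2.18 ± 0.12). Neither overlapped. *Cyp46a1*, with which neurons clear cholesterol, was higher as well (3.04 ± 0.1). Of 20 genes of cholesterol synthesis, *Dhcr7* (1.17 ± 0.14) and *Hsd17b7* (1.06 ± 0.15) were higher and 0 lower, a share of 10%, against 8.20% higher among all genes.

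Of 21 genes for the oligodendrocyte lineage, 4 were higher in culture and 0 lower. *Olig1* had 11.45 to 12.42 (median 11.84) in culture and 7.13 to 8.61 (median 7.73) in cortex (4.04 ± 0.16), and *Olig2* had 7.41 to 9.36 (median 8.82) in culture and 4.57 to 6.41 (median 5.41) in cortex (3.11 ± 0.24). For *Olig1* the groups were apart in all litters. *Olig2* differed least in WT litter 3569. *Lhfpl3*, of oligodendrocyte precursors, was higher (2.43 ± 0.15), and so was *Cnp*, of myelin (1.31 ± 0.08). *Pdgfra* (0.99 ± 0.24) and *Sox10* (0.7 ± 0.1), a factor of the whole lineage, did not pass, and both did with ribosomal and proteasome centring. The myelin genes *Mog*, *Mag* and *Mobp* were at background in both preparations, and *Mbp* did not pass (-0.84 ± 0.11). The probes of *Mbp* range from -0.84 to 0.64, so that its direction depends on the probe read.

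Some genes of vessels and blood were lower in culture. Of 29 genes for endothelium, 12 were lower and 1 higher in culture (median -0.71), and 8 were lower and 2 higher with ribosomal and proteasome centring. *Cldn5*, of the tight junctions of brain vessels, had 3.89 to 4.22 (median 4.05) in culture and 8.31 to 8.63 (median 8.54) in cortex (at least 9.46-fold lower, adjusted p = 2.21e-14). Every culture was at background. *Tek* (at least 1.58-fold lower), *Ramp2* (-1.95 ± 0.09) and *Cd34* (at least 2.38-fold lower) were lower too, and the higher gene was *Mfsd2a* (1.52 ± 0.23), a lipid transporter. *Kdr*, the main receptor for VEGF on endothelium, was bright in both preparations, with 6.53 to 8.92 (median 7.42) in culture and 7.61 to 7.91 (median 7.75) in cortex, and did not pass (-0.04 ± 0.24). Of the pericyte genes, *Abcc9* had 3.15 to 3.53 (median 3.25) in culture and 7.68 to 8.0 (median 7.86) in cortex (at least 6.0-fold lower), and *Rgs5* (-2.99 ± 0.4), *Vtn* (at least 4.58-fold lower) and *Kcnj8* (at least 2.88-fold lower) were lower with it. Of 14 red cell genes, 4 were lower and 0 higher. The embryonic globin *Hbb-y* had 2.94 to 3.07 (median 3.0) in culture and 3.72 to 8.26 (median 6.58) in cortex (at least 1.87-fold lower), with a wide spread among cortices. Of 13 choroid plexus genes, 2 were higher (15.4%, against 8.20% of all genes) and 0 lower, and *Ttr* did not pass (-0.87 ± 0.41).

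Of 5 defining markers of microglia, 1 was above background in culture and 4 in cortex. Of 26 genes, 10 were lower and 1 higher (median -0.53), and 8 were lower and 1 higher with ribosomal and proteasome centring (median -0.15). *Csf1r*, the receptor on which microglia depend, had 4.97 to 5.73 (median 5.26) in culture and 7.84 to 8.13 (median 7.98) in cortex, with no overlap (-2.65 ± 0.06, adjusted p = 2.55e-11). Its other probes, at -0.91 and -0.28, fell short of the size threshold. *C1qa* (at least 2.28-fold lower), *P2ry12* (at least 1.6-fold lower) and *Ctss* (at least 2.44-fold lower) were lower too, and at background in culture. The higher gene was *Cd68* (at least 1.47-fold higher), of lysosomes.

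In contrast, contractile and fibrous genes were higher, but not across their whole lists. *Acta2* had 9.42 to 11.98 (median 10.86) in culture and 5.35 to 5.93 (median 5.52) in cortex (5.24 ± 0.21, adjusted p = 8.32e-10), and *Tagln* had 8.66 to 11.6 (median 10.05) in culture and 4.88 to 5.77 (median 5.51) in cortex (4.61 ± 0.29). No array of either kind overlapped. *Fmod*, with 8.72 to 11.27 (median 10.46) in culture and 3.78 to 4.14 (median 3.9) in cortex, *Ogn* (at least 11.2-fold higher), *Bmp6* (at least 8.23-fold higher), *Thbs1* (2.41 ± 0.27) and *Col5a2* (2.3 ± 0.29) were higher. The smooth muscle myosin *Myh11* and the fibroblast genes *Col1a1* and *Lum* were at background in both, *Dcn* was higher (1.09 ± 0.39) and *Col1a2* lower (at least 1.14-fold lower), the call of *Col1a2* being lost with ribosomal and proteasome centring. Of 25 genes for meninges and fibroblasts 6 were higher and 1 lower, and of 16 for pericytes and smooth muscle 4 were higher and 5 lower.

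Metals, redox and the integrated stress response were partly higher. *Mt1* had 12.41 to 13.18 (median 12.67) in culture and 7.9 to 8.46 (median 8.13) in cortex (4.54 ± 0.07), *Mt2* differed by 3.96 ± 0.1 and the brain form *Mt3* by 2.04 ± 0.12. The groups did not overlap for *Mt1*. *Srxn1* (1.98 ± 0.1) and *Hmox1* (1.5 ± 0.11), of the oxidative stress response, were higher, and *Txnip* was lower (-1.1 ± 0.13), with 7 of 19 genes higher and 2 lower, and 10 higher and 0 lower with ribosomal and proteasome centring. Of 24 genes of the unfolded protein and integrated stress responses, 5 were higher and 0 lower, led by *Sesn2* (2.23 ± 0.09), *Chac1* (2.17 ± 0.1) and *Asns* (2.02 ± 0.09), targets of ATF4. With that centring 13 were higher. The chaperone *Hspa5* did not pass (0.52 ± 0.1).

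Of 28 genes of glycolysis and hypoxia, 8 were higher in culture and 3 lower (28.6% and 10.7%, against 8.20% and 9.82% of all genes). *Slc2a3*, the neuronal glucose transporter, had 11.27 to 12.28 (median 11.81) in culture and 9.27 to 9.84 (median 9.46) in cortex (2.32 ± 0.12), and *Eno2*, the neuronal enolase, had 8.92 to 9.65 (median 9.31) in culture and 7.06 to 7.67 (median 7.36) in cortex (1.98 ± 0.09). Neither overlapped. *Aldoa* (1.87 ± 0.07) and *Pfkp* (1.73 ± 0.1) were higher, and *Hk2* (-1.16 ± 0.12) was lower, while *Hk1* was higher (1.36 ± 0.07). Of 65 genes of oxidative phosphorylation 5 were higher and 1 lower (median 0.38), no larger a share than the 8.20% higher among all genes. With ribosomal and proteasome centring, 22 were higher and 0 lower, and *Hk2* was not called.

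Genes of protein synthesis and breakdown shifted by small amounts, and most of them were lower. Of 44 ribosomal protein genes, *Rps6* (-1.35 ± 0.07), *Rps25* (-1.26 ± 0.11) and *Rpl14* (-1.48 ± 0.06) were lower and 0 higher (median -0.46). At any size by limma's adjusted p, 33 of the 44 were lower and 3 higher. Of 31 proteasome genes, 0 reached the size threshold, and 24 were lower and 3 higher at any size by limma's adjusted p (median -0.33). Among all 18193 genes, 6326 were lower and 6108 higher at any size. Both lists are themselves the reference of the ribosomal and proteasome centring, which brings their mean difference near 0 whatever the data. That setting therefore does not test them. *Psme1*, of the proteasome activator, was lower (-1.47 ± 0.04), whereas *B2m* (1.57 ± 0.17), *Tap1* (at least 3.1-fold higher) and *Tapbp* (1.46 ± 0.14) were the higher genes of antigen presentation by MHC class I, with *Erap1* (at least 1.02-fold higher). Of 22 interferon genes 0 passed, with 4 lower and 8 higher at any size.

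Of 22 splicing regulators, 5 were lower and 2 higher, and 3 each with ribosomal and proteasome centring. *Ptbp2*, the splicing repressor of young neurons, had 10.44 to 10.97 (median 10.68) in culture and 11.88 to 12.25 (median 12.06) in cortex (-1.35 ± 0.06), and *Mbnl2*, which promotes adult splice forms, had 10.09 to 10.57 (median 10.28) in culture and 7.63 to 7.83 (median 7.71) in cortex (2.6 ± 0.06). Both were without overlap, and the call of *Ptbp2* was lost with that centring. *Ptbp1* did not pass (-0.4 ± 0.11), nor did *Rbfox3*, or NeuN (0.69 ± 0.17). *Elavl4* (-1.62 ± 0.1), *Elavl2* (-1.54 ± 0.05) and *Khdrbs2* (-2.13 ± 0.07) were lower. In the neuronal BAF complex, which replaces that of progenitors, the neuronal subunits *Dpf1* (-1.41 ± 0.07) and *Ss18l1* (-1.75 ± 0.06) were lower and so were the progenitor subunits *Phf10* (-1.07 ± 0.09) and *Ss18* (-1.03 ± 0.1). The calls of *Phf10* and *Ss18* were lost with that centring. The neuronal subunit *Actl6b* did not pass (-0.77 ± 0.09). For the progenitor subunit *Actl6a* the probe read did not pass (-0.66 ± 0.09), while its other 2 probes did, at -1.74 and -1.76.

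Fetal growth genes, imprinted genes and RNA-binding proteins, taken as 1 list, were more often higher, with 7 of 19 higher and 1 lower. The shares are 36.8% and 5.26%, against 8.20% and 9.82% of all genes. *Igfbp5* (3.56 ± 0.14), *Igfbp2* (2.78 ± 0.14), *Igf1* (2.36 ± 0.19) and the imprinted RNA *Meg3* (1.73 ± 0.12) were higher. The other probe of *Igfbp5*, at 0.67 ± 0.07, fell short of the size threshold. *Igf2*, which vessels and meninges make, had 4.65 to 5.22 (median 4.9) in culture and 7.08 to 7.72 (median 7.51) in cortex and was lower (at least 4.66-fold lower).

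The same differences were then compared between genotypes, to see whether *Fmr1*KO litters change otherwise in culture. *Fmr1* itself had 8.07 ± 0.22 in KO cultures and 8.97 ± 0.3 in WT cultures, and 8.93 ± 0.05 in KO cortex and 9.92 ± 0.06 in WT cortex (SD, n = 5 each). Each KO group was below its WT group, and the culture minus cortex difference was -0.9 ± 0.08, short of the threshold. Of 7 genes for FMRP, its relatives and partners, *Caprin1* alone passed (-1.27 ± 0.05), whereas with ribosomal and proteasome centring *Caprin1* was not called and *Cyfip2* passed as higher. No gene passed limma's interaction of genotype and culture (0 of 18193, 0%, lowest adjusted p = 0.999), and 729 genes (4.01%) had an unadjusted p under 0.05. The smallest p values were those of *Ltk* (KO minus WT of the difference -0.81 ± 0.13), *Parp12* (1.02 ± 0.19), *Dcpp3* (-0.47 ± 0.09) and *Mr1* (-0.43 ± 0.1). The KO litters alone gave 3140 called genes and the WT litters alone 3397. The methods describe KO and WT replicates as handled in same-day pairs, but no label names a pair or a day, so none entered the fit.

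The hippocampal cultures and hippocampi of the same 10 litters served to ask which changes differ by region. They were 5 KO and 5 WT arrays of each kind, of the same age, days in vitro and pooling as the cortical ones. The cortical difference between culture and tissue departed from the hippocampal one in 886 genes (4.87% of 18193), higher in cortex for 587 (3.23%) and lower for 299 (1.64%). Of these, 477 were also called between cortical culture and cortex. Without litters 2644 and NT, 1108 genes were called. The KO litters alone gave 1079 genes and the WT litters alone 615. By list, the cortical difference was the higher one in 22 of 28 mitosis genes, 13 of 32 replication genes and 9 of 20 radial glia genes. Of the mitosis and replication genes, 24 each were lower in cortical culture than in cortex and 0 higher. A higher difference is therefore not a rise in cortical culture for those lists. In the lists of mitosis, replication and radial glia, the cortical difference was the lower one for 0 genes. On the other side were 7 of 15 deep layer genes, with 0 higher, and 6 of 25 potassium channel genes, with 1 higher.

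*Olig2* and *Pdgfra*, of oligodendrocyte precursors, were among the changes more positive in cortex. *Olig2* had 7.41 to 9.36 (median 8.82) in cortical culture and 4.57 to 6.41 (median 5.41) in cortex, and medians of 4.84 in hippocampal culture and 5.25 in hippocampus. The cortical minus hippocampal difference passed (adjusted p = 7.24e-07), and with the hippocampal cultures at background its size is not given. *Pdgfra*, the growth factor receptor of oligodendrocyte precursors, had medians of 8.98 in cortical culture and 7.98 in cortex, against 5.51 in hippocampal culture and 7.71 in hippocampus (3.28 ± 0.23). By group median, *Olig2* was high in cortical culture only, and *Pdgfra* was low in hippocampal culture only. *Ccn3* had 11.59 in cortical culture and 5.99 in cortex, against 7.47 and 6.19 in the hippocampal pair (3.96 ± 0.34).

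Other genes on that side were brightest in hippocampal tissue. *Tac2* had medians of 4.6 in cortical culture and 4.93 in cortex, at background, against 4.68 in hippocampal culture and 8.93 in hippocampus. *Rgs13*, *Wif1*, *Rspo1* and *Cyp1b1* had their highest group median there as well, at 6.57, 6.07, 7.34 and 7.44. For these 5 genes the cortex was at background, and for all but *Cyp1b1* the hippocampal cultures too, so that their differences between regions passed but have no measured size. *Wif1* and *Rspo1* act in the Wnt pathway.

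All 8 genes named on the other side had a higher median in embryonic cortex than in hippocampus, although *Cidea* was at background in both tissues. *Nefl*, the light neurofilament, had medians of 11.24 in cortical culture and 10.03 in cortex, against 12.04 in hippocampal culture and 7.39 in hippocampus (-3.64 ± 0.15, adjusted p = 3.85e-08). *Kcnq5*, a channel of the M current, had 8.86 and 7.58 in the cortical pair, against 10.17 and 5.23 in the hippocampal pair, culture before tissue, with the hippocampus at background. *Nefm* differed between culture and tissue by -1.06 ± 0.16 in cortex and by 2.15 in hippocampus (-3.21 ± 0.25). *Drd1*, a dopamine receptor of the striatum and deep cortex, had medians of 5.9 in cortical culture and 8.09 in cortex, and values near 6.07 and 5.56 in hippocampal culture and hippocampus (-2.93 ± 0.22). *Tafa2* (-3.57 ± 0.19), *Nin* (-3.02 ± 0.15), *Cidea* and *Shisa2* complete the 8 genes. *Shisa2* was at background in cortical culture, and no size is given for it or for *Cidea*.

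**Figure D5:**
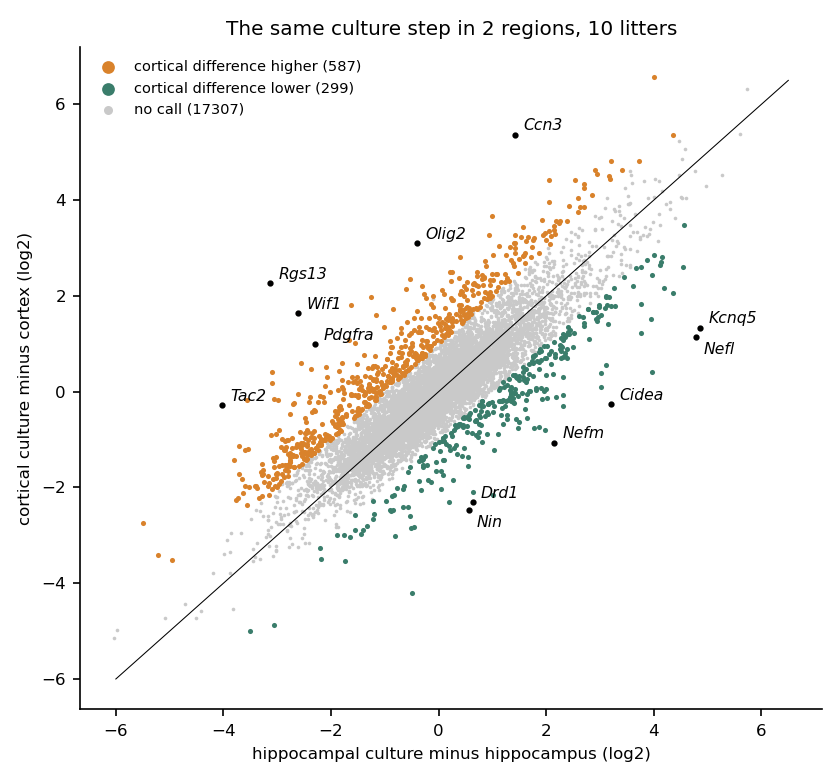
Cortical culture minus cortex (log2, vertical axis) against hippocampal culture minus hippocampus (log2, horizontal axis) for 18193 genes, averaged over 10 litters, with the line of equal values. Orange points are the 587 genes with the higher cortical difference, green points the 299 with the lower one and grey points the other 17307.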

How the data were processed

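Total RNA (100 ng an array) from 10 cortical cultures and 10 embryonic cortices had been hybridized to Affymetrix Mouse Genome arrays. The authors deposited log2 values made with RMA, a method that corrects for background, quantile normalizes the arrays and summarizes each probe set, and these were used without further scaling. Quantile normalization gives all arrays nearly the same distribution, so a shift shared by most genes is removed before any comparison. Arrays have no counts, and their number limits the precision.

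Of 45101 probe sets, 64 controls were left out, and 45037 were tested. Of these, 34945 carry 1 gene, 932 several and 9160 none in the platform annotation, and only those with 1 gene were counted (18193 genes). By Entrez ID, 34741 probe sets were found in RefSeq for GRCm38.p6. For background, the 95th percentile was taken over 123 probe sets for olfactory, vomeronasal and keratin-associated genes (5.27). Where 1 preparation was below it, the fold was taken from the brighter mean over that level or the dimmer mean, whichever was higher.

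R 4.3.3 with limma 3.58.1 (lmFit, and eBayes with its defaults) was run on differences within a litter, with the mean of KO and WT litters, KO minus WT, and the cortical minus the hippocampal difference as contrasts (8 residual and 3.69 prior degrees of freedom for the first). The pairing comes from the mouse ID of the labels. Deviations from the group means correlated between -0.224 and 0.278 within litters, over 0.1 in 4 of 10. The p values were adjusted over all probe sets by the Benjamini-Hochberg method. Tables and figures used Python 3.11.15 with pandas 2.3.3 and Matplotlib 3.10.9. The fits were checked on simulated data.

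Named are the genes with the largest differences by a fixed rule (10 each way above background in both preparations, 5 each way with the other preparation at background, 8 each way between regions), the leading members of 51 gene lists, subunit pairs and defining markers. Members and lists were chosen with earlier results of these data known. Further genes named for a contrast, for their spread over litters or for not passing were picked after their values were seen. Alternatives covered the pairing, which arrays entered the fit, how variances were shared, the probe per gene, a filter on dim probes, scalings, thresholds, the genotypes separately and each litter left out. Leaving out litters 2644 and NT together was chosen after seeing the data. The methods state that KO and WT replicates were handled in pairs on a day and mention duplicates, but the labels name neither, so no day was used as a batch and each array counts as 1 sample.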

Additional observations from a re-analysis of the deposited data

Results flagged for a closer look

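Litters that stood apart from the other 9 in the difference between culture and cortex were found for 8 of the 239 named genes examined, by Dixon's criterion. Chance alone marks about 5% of genes in this way. *Olig2* rose by 1.0 in WT litter 3569, and *Lhfpl3* by 1.07 in the same litter, each the lowest value of 10. *Grik3* stood at -2.83 in WT 3569 and *Neurod6* at -3.52 in WT 2236, both the most negative. *Rps25* had -2.26 and *Syngr1* 3.04 in WT 2643. *Mt1* had 4.01 in WT NT and *Dnmt3b* 0.0167 in KO 2221.

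The change from cortex to culture differed from that in the hippocampus in 886 genes by limma's test of the difference itself, and in 80 of the 254 named genes. The most positive fitted values, cortical minus hippocampal, were those of *Rgs13* (5.38), *Wif1* (4.25), *Ccn3* (3.96), *Tac2* (3.75), *Rspo1* (3.51), *Olig2* (3.5), *Cyp1b1* (3.43) and *Pdgfra* (3.28). The most negative were *Nefl* (-3.64), *Tafa2* (-3.57), *Kcnq5* (-3.52), *Cidea* (-3.46), *Nefm* (-3.21), *Shisa2* (-3.16), *Nin* (-3.02) and *Drd1* (-2.93). For *Rgs13*, *Wif1*, *Tac2*, *Rspo1*, *Olig2*, *Cyp1b1*, *Kcnq5*, *Cidea* and *Shisa2* at least 1 of the 4 groups was at background, so their values and their place in this order are not measured sizes. In 11 genes the 2 regions had opposite signs of at least 1 each.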

How the results depend on the processing

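Of culture against cortex, 12434 genes passed with no minimum size and 2090 with limma's treat at a log2 difference of 1, and of cortex against hippocampus 6133 and 194. Leaving out each litter in turn gave 3242 to 3337 genes, 813 to 1006 genes between regions and 0 to 0 between genotypes. Without the replicate block, that is without pairing by litter, the counts were 3280, 880 and 0, and no named gene changed its call. No named gene reversed under any alternative run, although median centring and ribosomal and proteasome centring shift all differences alike, by too little to reverse a call. Median centring gave 3412 genes, 39% of them higher, and ribosomal and proteasome centring 3375, 74.1% of them higher against 45.5% in the report. Median centring adds -0.091 to every difference between culture and cortex, and ribosomal and proteasome centring adds 0.382. With ribosomal and proteasome centring, 18 named genes were no longer called, among them *Mki67*, *Cdk1*, *Tubb3*, *Emx1*, *Ptbp2*, *Grik3*, *Trp73*, *Ebf3*, *Lhx1*, *Nefm*, *Rps6*, *Rps25* and *Caprin1*. *Dcn*, *Col1a2*, *Nefm* and *Hsd17b7* lost their call without some litters, and *Pdgfra*, *Cx3cr1* and *Ttr* gained one. Of 2083 called genes with several probes, 337 had a probe of the opposite sign.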

Other observations

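The cortices differed among litters in genes that are also known from the striatum, which were picked by their spread after the values were seen. Isl1, a factor of striatal projection neurons, was 8.42, 7.48, 7.21 and 6.72 in the cortices of KO 2620, WT 2644, WT 2236 and KO 2221, and 3.98 in KO 4236 and 3.99 in WT 3569. *Tac1*, Pbx3 and Zfp503 were highest in the cortex of KO 2620 as well (8.3, 9.54 and 7.12), and Pbx3 was lowest in that of KO 4236 (7.1). Isl1 and Pbx3 were lower in culture than in cortex (at least 1.28-fold lower and -1.37 ± 0.23), *Tac1* was higher (2.08 ± 0.3), and Zfp503 did not pass (0.63 ± 0.25). *Nts* was high in other cortices, at 10.7 in KO 4236 and 10.43 in WT NT, and low in WT 2643 at 5.53.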
